A study of Mus musculus with 2 samples.

Results

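The respiratory chain of the mitochondrial inner membrane is built from subunits of 2 genomes, and both groups of genes were followed here in single cells of the mouse abdominal aorta. The nuclear set holds every gene whose symbol begins with *Nduf* (letters a, b, c, s or v and a digit), *Uqcr*, *Cox4* to *Cox8* or *Atp5*, and the mitochondrial set every *mt-Nd*, *mt-Co*, *mt-Cytb* or *mt-Atp* gene. The rule uses names and no measured value. It took 97 of 33696 genes, 84 nuclear and 13 mitochondrial, of which 96 had at least 1 UMI in the retained cells. *Cox8c* had none. The nuclear set has 40 genes of complex I, 8 of complex III, 19 of complex IV and 17 of complex V, and the mitochondrial set 7, 1, 3 and 2. *Ndufa4* and *Ndufa4l2* are counted under complex I by their names, although the protein of *Ndufa4* is known as a subunit of complex IV. *Cox5b-ps* is a pseudogene by its name, but the annotation GENCODE vM39 lists it as protein-coding. *Ndufb4b*, counted under complex I, is listed there as a long non-coding RNA.

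The aortas came from 5-month-old male C57BL/6J mice. The Control mice were given saline. The AngII+HS mice carried osmotic minipumps that delivered angiotensin II (AngII), and drank water with 0.9% NaCl and 0.2% KCl (high salt, HS), a model of abdominal aortic aneurysm. Tissue was taken on day 28, and each condition gave 1 droplet-based 3' library. The labels' design text gives 5 pooled mice per condition, while their protocol speaks of 1 Control and 2 AngII+HS mice. No altered gene is given for either group, and nothing in the counts tells the mice of a pool apart. With 1 library per condition there is no replicate check of any difference below, no test was made between the conditions, and the 95% intervals cover counting error only.

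Complex I (NADH dehydrogenase), complex III (cytochrome *bc1*) and complex IV (cytochrome *c* oxidase) pass electrons to oxygen and pump protons, and complex V (ATP synthase) uses the proton gradient to make ATP. Mitochondrial DNA encodes the core membrane subunits and is transcribed inside the organelle as long polycistronic RNAs, whereas the nuclear subunits are transcribed separately, made in the cytosol and imported. Complex II is encoded by nuclear DNA alone. Contractile smooth muscle cells of the vessel wall depend on both respiration and glycolysis, and several complex IV subunits have paralogs that are used in particular tissues or at low oxygen.

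The Control library kept 10269 cells with a median of 7265 UMIs (unique molecular identifiers, each counting 1 captured RNA molecule), and the AngII+HS library 19734 cells with a median of 3069.5. Cells with 20% or more mitochondrial UMIs were removed (81 Control and 103 AngII+HS barcodes), so the cell filter itself reads the mitochondrial genes. The clusters were formed without any gene of either set. Of 26 clusters, 23 were named by marker lists. The VSMC markers summed to 28336 CPM (UMIs per 1000000 UMIs of those cells) in Control vascular smooth muscle cells (VSMCs), the fibroblast markers to 18072 CPM in Control fibroblasts, the macrophage markers to 6267 CPM in Control macrophages and the VEC markers to 11877 CPM in Control vascular endothelial cells (VECs), and no marker of these lists was at 0 in its own type. The lists of barcodes recorded with the libraries fit each other's cell numbers rather than their own and were not used. They share 67 barcodes.

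The promoters of nuclear members carried short motifs of known activators of respiratory genes more often than those of all genes. RefSeq promoters (GRCm38.p6, 250 bases before to 50 after the start site) were at hand for 67 of the 84 nuclear members and for 27025 genes in all. These 27025 genes are the background, and were not matched to the members for expression or base content. The letters GCATGCGC, read on both strands, are known as the core of the site of nuclear respiratory factor 1 (NRF1). They were in promoters of 13.4% of the members (9 of 67) and of 3.05% of all genes. The letters AAGATGGCG, part of the site of YY1, were in promoters of 10.4% of the members and of 1.64% of all genes. Those of YY1 began 22 to 35 bases after the start site in 6 of 7 members. They hold an ATG and can be part of a start codon. The letters CCGGAAGT (ETS factors) were in 7.46% (5 of 67) against 4.31%, and TCAAGGTCA (estrogen-related receptors, ERR) in 1.49% (1 of 67) against 0.466%. The ETS and ERR differences thus rest on few members. A match is a string of letters and not a shown site. The following windows hold the 100 bases before the start site, 5' to 3' in the direction of the gene. They were chosen because *Ndufa11*, *Ndufa6* and *Ndufa8* are each among the 5 nuclear members with the highest ratio in a cell type below, *Atp5g2* holds, as *Ndufa11* does, the NRF1 letters on both strands with an overlap, and *Atp5g3* is the sole member with the ERR letters. Other members with the NRF1 letters were among the 5 lowest below. These were *Cox6a1* in VSMCs (log2 ratio -0.19) and *Uqcrc1* in fibroblasts (-0.04) and VECs (0.10). *Ndufa6* itself was among the 5 lowest in VECs (0.08). Whether the letters go with the ratios was not tested. Capitals mark the matched letters, on either strand.
Ndufa11, chr17:56717662-56717761, plus strand: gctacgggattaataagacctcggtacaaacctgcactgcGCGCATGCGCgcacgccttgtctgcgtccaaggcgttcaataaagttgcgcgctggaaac
Ndufa6, chr15:82354292-82354391, minus strand: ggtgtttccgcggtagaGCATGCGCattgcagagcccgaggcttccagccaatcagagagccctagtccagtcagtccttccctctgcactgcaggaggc
Ndufa8, chr2:36049339-36049438, minus strand: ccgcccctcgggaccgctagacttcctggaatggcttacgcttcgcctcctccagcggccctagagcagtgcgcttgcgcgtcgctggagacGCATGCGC
Atp5g2, chr15:102671048-102671147, minus strand: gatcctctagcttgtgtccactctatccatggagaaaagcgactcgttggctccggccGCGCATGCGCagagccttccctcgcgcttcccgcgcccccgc
Atp5g3, chr2:73911327-73911426, minus strand: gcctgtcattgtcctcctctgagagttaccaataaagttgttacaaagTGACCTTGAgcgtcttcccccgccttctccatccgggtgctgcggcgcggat

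The first question was how each set differed between the libraries within a cell type. Over all retained cells, the mitochondrial set took 4.01% of the Control UMIs and 1.44% of the AngII+HS UMIs, and the nuclear set 1.06% and 1.12%. The direction within cell types was the same throughout, apart from erythroid cells. In each of 10 cell types with at least 30 cells per library, the mitochondrial set was lower and the nuclear set higher in the AngII+HS library. The log2 ratios of the summed levels (AngII+HS over Control) ran from -1.33 to -0.47 for the mitochondrial set and from 0.22 to 1.03 for the nuclear set, with medians of -0.96 and 0.49.

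**Figure D1:**
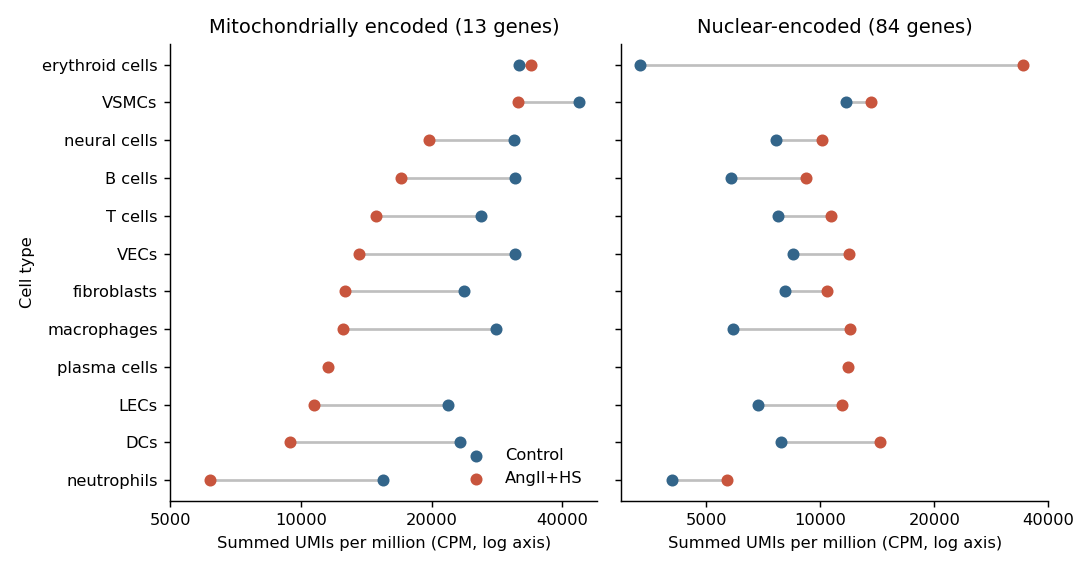
Summed level of the mitochondrial set (left) and the nuclear set (right) in CPM on log axes, for each named cell type, with 1 point per library and a grey line joining the libraries. In the left panel the AngII+HS point lies left of the Control point in every type with both points but erythroid cells, and in the right panel it lies right of it in every type with both.

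In VSMCs, the contractile cells of the media, the mitochondrial set was at 43674 and 31539 CPM (Control, then AngII+HS, here and below) (log2 ratio -0.47, 95% interval -0.48 to -0.46), and the nuclear set was at 11671 and 13629 CPM (0.22, 0.21 to 0.23). The nuclear ratio was 0.064 after thinning to 1000 UMIs, 0.073 with equal weight per cell and 0.10 with no mitochondrial limit. In fibroblasts the mitochondrial set was at 23681 and 12647 CPM (-0.90, -0.91 to -0.90) and the nuclear set at 8082 and 10402 CPM (0.36, 0.35 to 0.38). The latter ratio was 0.14 with equal weight per cell and 0.59 with TMM scaling, which estimates a common factor over all genes. Macrophages had the highest ratio of the nuclear set, with 5892 and 12018 CPM (1.03, 1.003 to 1.05), while their mitochondrial set was at 28176 and 12492 CPM (-1.17, -1.19 to -1.16). In VECs the mitochondrial set was at 31106 and 13594 CPM (-1.19, -1.21 to -1.18) and the nuclear set at 8453 and 11899 CPM (0.49, 0.48 to 0.51). In Control macrophages and VECs the mitochondrial set was thus well above the nuclear set, and the AngII+HS cells of these types held nearly equal amounts. Neither was particular to these types. Control B cells and neural cells had 5.36 and 4.06 mitochondrial UMIs per nuclear-set UMI. AngII+HS LECs and neutrophils, with 0.94 and 1.09, also held nearly equal amounts.

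The smaller cell types showed the same pair of directions. Lymphatic endothelial cells (LECs) had 21760 and 10718 CPM of the mitochondrial set, and 6840 and 11437 CPM of the nuclear set. Neutrophils, with the lowest mitochondrial level in either library, had 15473 and 6162 CPM, and 4067 and 5667 CPM of the nuclear set. Dendritic cells (DCs) had 23296 and 9451 CPM of the mitochondrial set and the highest nuclear level of the 10 types in the AngII+HS library (7888 and 14403 CPM), with only 33 Control cells. For T cells, B cells and neural cells the mitochondrial log2 ratios were -0.80, -0.87 and -0.66, and the nuclear ones 0.46, 0.66 and 0.40. Plasma cells, present in the AngII+HS library alone (170 cells), had 11545 CPM of the mitochondrial and 11850 CPM of the nuclear set.

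Erythroid cells stood apart. Their mitochondrial set was at 31805 and 33837 CPM, and their nuclear set at 3356 and 34209 CPM. The cluster holds 39 Control cells and 119 AngII+HS cells at medians of 1969 and 1119 UMIs, and the cytosolic ribosomal mRNAs differed in it in the same direction (25889 and 143684 CPM). The erythroid markers summed to 617850 and 38435 CPM in it, so they fill most of the Control total of which every other level is a share. The neutrophil markers summed to 12.4 and 2972 CPM, the macrophage markers to 137 and 1296 CPM and the VSMC markers to 1628 and 460 CPM. The name thus fits the AngII+HS cells less clearly, and the difference is not shown to lie within 1 cell type. The cluster enters no count over the 10 types below, but is among the types where their order, correlations and UMIs per nuclear-set UMI are given.

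The number of mitochondrial UMIs per nuclear-set UMI compares the sets without the total of all UMIs. It was lower in the AngII+HS library in every type present in both. In macrophages it was 4.78 in the Control and 1.04 in the AngII+HS library, in VECs 3.68 and 1.14, in fibroblasts 2.93 and 1.22, and in VSMCs 3.74 and 2.31. VSMCs had the smallest difference (log2 ratio -0.69), and among the 10 types macrophages had the largest (-2.20), followed by DCs (-2.17).

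The order of the cell types differed between the sets. VSMCs had the highest mitochondrial level in the Control library, 2.82 times that of neutrophils, the lowest. The levels of erythroid cells, B cells, VECs and neural cells came next, between 31018 and 31805 CPM, and these neighbours did not differ beyond their counting intervals. Fibroblasts and DCs, and for the nuclear set fibroblasts, DCs, T cells and neural cells in turn, had overlapping intervals as well. Over 11 cell types of the Control library the log2 levels of the sets correlated with r = 0.42, and over 12 types of the AngII+HS library with r = 0.69. Erythroid cells are among these types and in the 23 combinations below. In the Control library they had rank 2 for the mitochondrial and rank 11 for the nuclear set, and in the AngII+HS library rank 1 for both. The values of r thus rest in part on this 1 small cluster, and r without it was not computed. The points of a library share its depth and its cell filter. Among 59 ranked nuclear members, *Ndufv1* and *Ndufa10*, both of complex I, had levels most like the mitochondrial set over the 23 combinations of type and library (r = 0.38 and 0.35), which are weak likenesses. Over these 23 the whole nuclear set had r = -0.03. They pool the libraries, between which the sets differ in opposite directions in most types, so these r are unlike those within a library.

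The mix of cell types differed between the libraries, with 5096 VSMCs in the Control and 695 in the AngII+HS library, and 99 and 4647 neutrophils. Weighting the AngII+HS levels by the Control mix gave a mitochondrial share of 2.66%, between the Control value of 4.01% and the observed 1.44%. Weighting the Control levels by the AngII+HS mix gave 2.78%. The difference was thus -1.34 percentage points for the levels alone and -1.23 for the mix alone. With no doublets removed these were -1.60 and -0.91. For the nuclear set the components ran in opposite directions. The AngII+HS levels with the Control mix gave 1.30% and the Control levels with the AngII+HS mix 0.760%, against observed shares of 1.06% and 1.12%.

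Clusters within a cell type did not all behave alike. Among 22 clusters with at least 30 cells in each library, the mitochondrial set was lower in the AngII+HS library in 20 and the nuclear set higher in 21. The exceptions were the erythroid cluster and a VSMC cluster led by *Erbb4* and *Unc5c*. In this VSMC cluster (2802 and 251 cells) the mitochondrial set was at 40014 and 42132 CPM and the nuclear set at 10719 and 10247 CPM. In the VSMC cluster led by *Igfbp2* and *Sost* (1884 and 383 cells) the mitochondrial set was at 48387 and 26089 CPM and the nuclear set at 12829 and 14923 CPM, log2 ratios of -0.89 and 0.22. The third VSMC cluster, led by *Sparcl1*, lay between them (-0.36). The lower mitochondrial level of all VSMCs was thus seen in 2 of their 3 clusters. The *Erbb4*-led cluster had a median of 10079.5 UMIs per cell in the Control and 5573 in the AngII+HS library, and the share of VSMCs with 10% or more UMIs in the mitochondrial set was 1.79% and 7.77%, the only one of the 10 types in which this share was higher in the AngII+HS library. The mitochondrial ratio of all VSMCs was -0.18 with no mitochondrial limit and -0.15 when every cell counted equally or was thinned to 1000 UMIs.

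Macrophages showed a split in the nuclear set. In the *C1qa*- and *Mrc1*-expressing cluster (453 and 2305 cells) the nuclear set was at 4887 and 11207 CPM (log2 ratio 1.197), whereas in the *Arg1*-led cluster (41 and 2075 cells) it was at 10893 and 12435 CPM (0.19). The mitochondrial set was lower in the AngII+HS library in both (-0.99 and -1.37). The macrophage ratio of the nuclear set was 0.53 when the libraries were merged without integration. The 3 fibroblast clusters with 30 or more cells per library had mitochondrial ratios of -1.04 to -0.87 and nuclear ratios of 0.17 to 0.59. The *Gpihbp1*- and *Kdr*-expressing VECs had ratios of -1.20 and 0.72, and the *Gja5*- and *Bmx*-expressing VECs -1.08 and 0.26. The highest mitochondrial levels of all, 83169 and 51063 CPM, were in an unnamed cluster. *Fgf14* led it, followed by *Kcnq5*, and none of the markers of its nearest list reached detection.

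**Figure D2:**
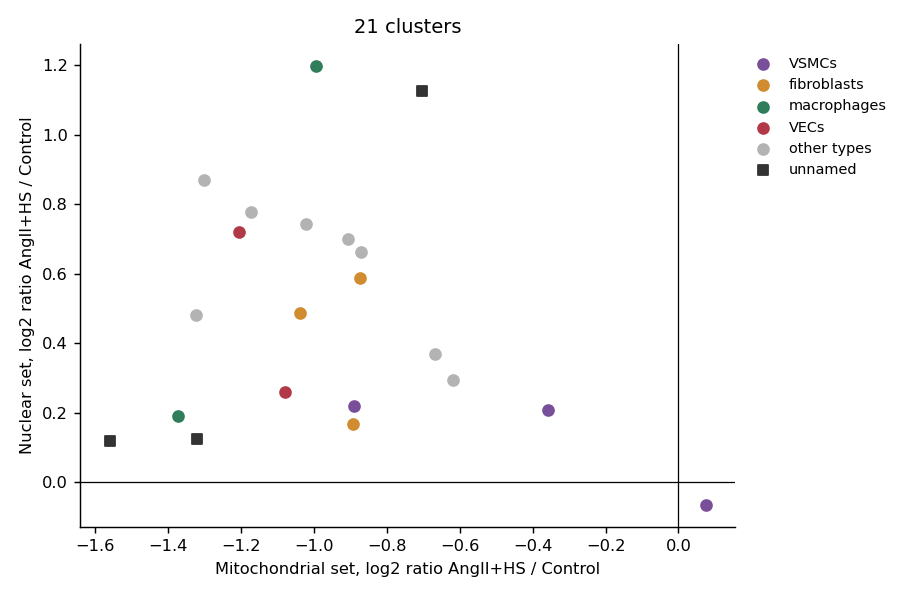
Log2 ratio of the mitochondrial set (x axis) against that of the nuclear set (y axis), AngII+HS over Control, for the 21 clusters with at least 30 cells in each library other than the erythroid cluster. All points but the *Erbb4*-led VSMC cluster at the lower right lie in the quadrant of a lower mitochondrial and a higher nuclear set.

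Depth moved with the mitochondrial share and was set beside it. In Control VECs the set was at 67860 CPM in cells of 500 to 2000 UMIs and at 20965 CPM in cells of 10000 UMIs or more, and in AngII+HS VECs at 23769 and 11507 CPM. The VECs of the libraries stayed apart within each depth bin. Macrophages had nearly the same median depth in both libraries (4087 and 4055 UMIs), and at 2000 to 5000 UMIs their mitochondrial set was at 28803 and 11786 CPM and their nuclear set at 4631 and 11276 CPM. In shallow cells the pattern depended on the type and the set. The mitochondrial set stayed well apart in VECs (above) and in macrophages of 500 to 2000 UMIs (53828 and 21077 CPM). Other differences were smaller there or ran the other way. Fibroblasts of 500 to 2000 UMIs had 29829 and 26996 CPM of the mitochondrial set and 12327 and 9986 CPM of the nuclear set, so that the nuclear set was lower in the AngII+HS library. Macrophages of 500 to 2000 UMIs had 7498 and 8303 CPM of the nuclear set. VSMCs of 2000 to 5000 UMIs ran the other way for both sets, with 78107 and 81695 CPM of the mitochondrial and 10663 and 5946 CPM of the nuclear set, in 175 and 141 cells. At 10000 UMIs or more VSMCs had 41311 and 24113 CPM of the mitochondrial set.

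Markers of RNA quality and of cell types also moved. The nuclear-retained RNAs *Malat1*, *Neat1*, *Meg3* and *Kcnq1ot1* summed to 32855 and 16717 CPM in macrophages, to 31081 and 20750 CPM in VECs, to 34103 and 30705 CPM in fibroblasts and to 44245 and 46239 CPM in VSMCs, and were lower in the AngII+HS library in 8 of the 10 types. The 6 neutrophil markers summed to 5.97 and 174 CPM in VSMCs, 8.98 and 191 CPM in fibroblasts and 11.6 and 212 CPM in VECs, and all 6 were higher in the AngII+HS library in each. In macrophages they summed to 334 and 286 CPM. The macrophage markers themselves summed to 6267 and 4548 CPM in macrophages, and 1 of the 6 was higher in the AngII+HS library. The LEC markers summed to 555 and 35.5 CPM in macrophages, with 3 of 6 higher. The erythroid markers summed to 22.7 and 513 CPM in VECs and to 1066 and 287 CPM in macrophages. The 6 fibroblast markers summed to 1576 and 3992 CPM in VSMCs. The part of these in the ratios was not tested. In these bulk sums fewer mitochondria per cell and fewer transcripts per mitochondrion cannot be told apart.

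The 13 mitochondrial genes differed unequally. Of the 13, 8 were lower by a log2 ratio of at least 0.5 in VSMCs, 12 in fibroblasts, 13 in macrophages and 13 in VECs, and none was higher by as much. Over all genes with at least 20 UMIs, 23.3%, 25.2%, 33.4% and 16.4% were lower by this fold in these types. The medians over the 13 genes were -0.68, -0.96, -1.33 and -1.33, against -0.04, -0.16, -0.14 and 0.04 over all genes.

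Of the ATP synthase genes, *mt-Atp8* had the lowest ratio of the 13 in each of these 4 types. It was at 464 and 122 CPM in VSMCs, 210 and 48.1 CPM in fibroblasts, 304 and 50.1 CPM in macrophages and 341 and 60.5 CPM in VECs, and its log2 ratio over the 10 types ran from -2.60 to -1.93. *mt-Atp6*, which had the most UMIs of any member, was at 12493 and 7732 CPM in VSMCs and at 7326 and 2736 CPM in macrophages (-0.69 and -1.42). The reading frames of *mt-Atp8* (chrM:7766-7969, GRCm39) and *mt-Atp6* (chrM:7927-8607) overlap by 43 bases on the same strand, so reads in the overlap cannot be assigned to 1 of them. The genes are transcribed as long polycistronic RNAs and the libraries are 3' libraries. The *mt-Atp8* ratio is thus one of assigned UMIs, and is not shown to be that of a separate RNA.

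Among the complex I genes, *mt-Nd3* had a low ratio (950 and 369 CPM in VSMCs, 691 and 154 CPM in macrophages, log2 ratios -1.36 and -2.16). *mt-Nd6*, the only member read from the other strand, was at 122 and 47.3 CPM in VSMCs and at 161 and 61.1 CPM in VECs (-1.37 and -1.40). *mt-Nd1* moved less, with 1986 and 1600 CPM in VSMCs and 1310 and 842 CPM in VECs (-0.31 and -0.64). *mt-Nd2*, *mt-Nd4*, *mt-Nd4l* and *mt-Nd5* lay between -1.62 and -0.19 in the 4 large types. The lowest of these was *mt-Nd2* in macrophages and the highest *mt-Nd4l* in VSMCs.

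The complex IV genes *mt-Co1*, *mt-Co2* and *mt-Co3*, its catalytic core, had ratios of -0.54, -0.27 and -0.68 in VSMCs and of -0.91, -0.81 and -1.21 in macrophages. *mt-Cytb*, the only complex III subunit encoded in the organelle, had the highest ratio of the 13 in VSMCs, fibroblasts and macrophages, while in VECs that of *mt-Nd1* was higher. It was at 3593 and 4656 CPM in VSMCs (0.37, 95% interval 0.36 to 0.39), at 2030 and 1568 CPM in fibroblasts (-0.37), at 1752 and 1047 CPM in macrophages (-0.74) and at 2277 and 1337 CPM in VECs (-0.77). VSMCs were the only one of the 10 types in which any mitochondrial gene was higher in the AngII+HS library.

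**Figure D3:**
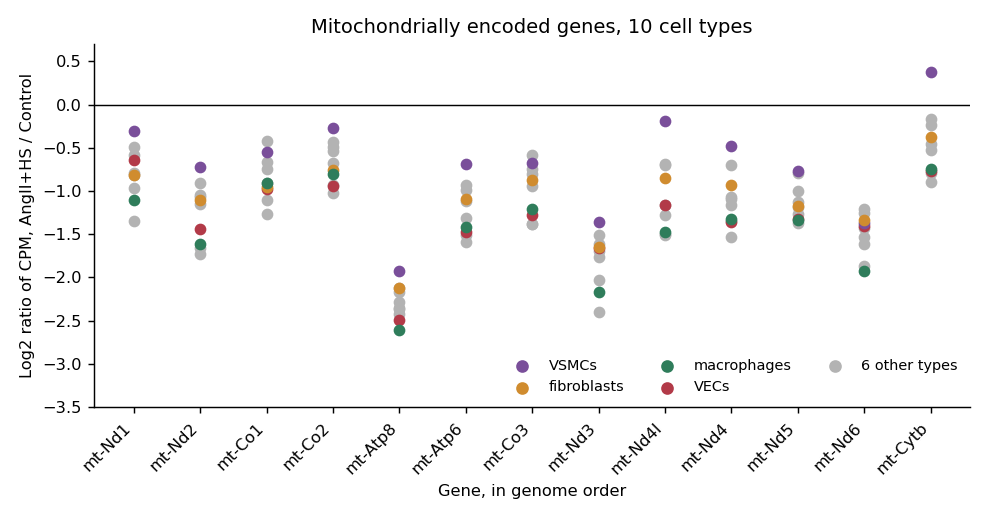
Log2 ratio of each mitochondrial gene (AngII+HS over Control) in 10 cell types, with genes in the order of the mitochondrial genome and 1 point per cell type. *mt-Atp8* lies low in all 10 types, between -2.60 and -1.93, and the VSMC point of *mt-Cytb* at 0.37 is the only one above 0.

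Shares within the mitochondrial set remove the difference of its total. Over all cells, *mt-Cytb* made up 8.12% of the set in the Control and 11.3% in the AngII+HS library, *mt-Co2* 13.05% and 16.4%, *mt-Atp6* 28.5% and 23.2%, *mt-Nd3* 2.16% and 1.22% and *mt-Atp8* 1.05% and 0.402%. The shares of *mt-Cytb* and *mt-Co2* were higher in the AngII+HS library in 10 of 10 types. Those of *mt-Atp8*, *mt-Atp6*, *mt-Nd2*, *mt-Nd3* and *mt-Nd4* were lower in 10 of 10. In VSMCs the share of *mt-Cytb* went from 8.23% (95% exact interval 8.19 to 8.26) to 14.8% (14.6 to 14.9), and in macrophages from 6.22% (6.03 to 6.41) to 8.39% (8.28 to 8.50). The share of *mt-Co3* was 13.6% and 13.7%, higher in 5 types and lower in 5.

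The nuclear genes differed less and the other way. Of the 84, 78 reached 20 UMIs over both libraries in VSMCs, 78 in fibroblasts, 80 in macrophages and 77 in VECs. Past a log2 ratio of 0.5, 8 were higher and 1 lower in VSMCs, where 15.5% and 23.3% of all genes were so. In fibroblasts 20 were higher and 0 lower, against 14.2% and 25.2% of all genes. There 2 members were lower with no minimum of UMIs, and 48 were higher with TMM scaling in place of the totals. Shares of all genes were not computed for these 2 settings. In macrophages 69 members were higher and 3 lower, against 22.2% and 33.4% of all genes. In VECs 48 members were higher and 2 lower, against 20.5% and 16.4%. Of genes with at least 200 UMIs, 10.6%, 10.3%, 23.1% and 16.7% were higher by this fold in VSMCs, fibroblasts, macrophages and VECs. Of nuclear members with at least 20 UMIs, 10.3%, 25.6%, 86.2% and 62.3% were so. This was near the share of genes with at least 200 UMIs in VSMCs and above it in the other types, though the minimums differ. The medians over the members with at least 20 UMIs were 0.27, 0.32, 0.96 and 0.56. Over all genes with at least 20 UMIs they were -0.04, -0.16, -0.14 and 0.04. A gene that is low in the Control library passes the minimum more readily if it is high in the other, so these counts describe the genes that passed and not all 84.

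**Figure D4:**
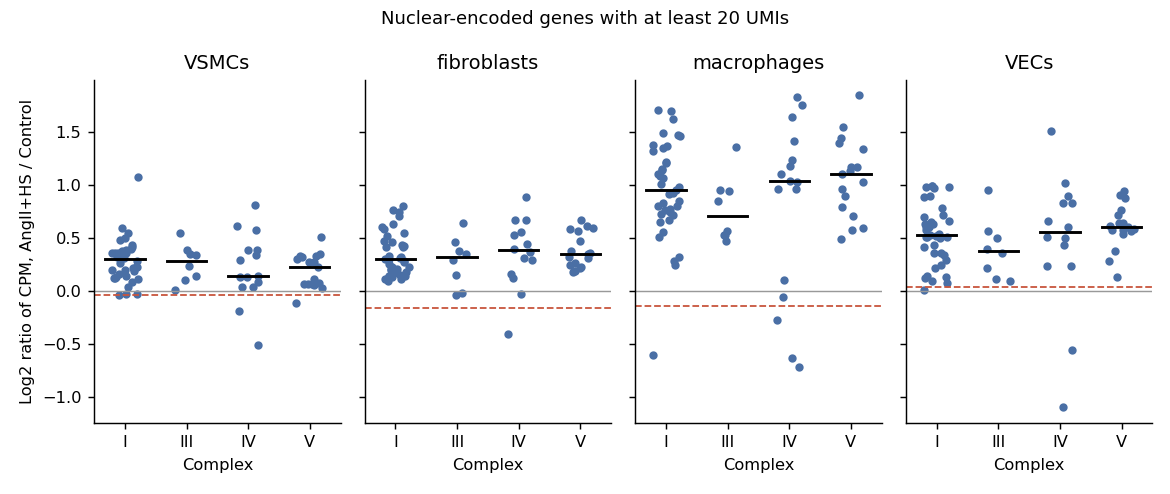
Log2 ratio (AngII+HS over Control, with 0.5 UMIs added) of each nuclear member with at least 20 UMIs in 4 cell types, by complex, with 1 point per gene, black bars at the medians of the complexes and a dashed line at the median of all genes. All black bars lie above the dashed line, most widely in macrophages.

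The complexes moved together. In each of the 10 types the summed levels of the nuclear genes of complexes I, III, IV and V were all higher in the AngII+HS library. In macrophages the sums of complex I were 1798 and 3678 CPM, of complex III 638 and 1112 CPM, of complex IV 1658 and 3503 CPM and of complex V 1798 and 3725 CPM. Complex III had the smallest ratio there (0.80), and the others lay between 1.03 and 1.08. In VSMCs complex I had the largest (0.31) and complex IV the smallest ratio (0.14). *Ndufa4*, counted under complex I by its name, was at 495 and 667 CPM in VSMCs. Sums with it under complex IV were not computed, so the order of the complexes holds for this naming only. In VECs complex V had the largest (0.58) and complex III the smallest (0.37), and in fibroblasts the 4 complexes lay between 0.33 and 0.41.

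For 67 nuclear members, each of the 10 types had a UMI in each library and at least 20 over both. Of these 67, 43 were higher in the AngII+HS library in all 10, by any amount. The shares of all genes that were higher in all 10 types, or lower in most, were not computed. *Cox5a*, a subunit of complex IV, was at 161 and 241 CPM in VSMCs, 111 and 164 CPM in fibroblasts, 110 and 370 CPM in macrophages and 157 and 318 CPM in VECs, and its log2 ratios were 0.58, 0.56, 1.76 and 1.01. *Ndufa11*, whose promoter letters are printed above, encodes an accessory subunit of the membrane arm of complex I. It had the highest ratio in VSMCs among the 76 members with at least 200 UMIs, at 155 and 325 CPM (1.07, 95% interval 0.998 to 1.14). In fibroblasts it was at 100 and 117 CPM (0.22). Its higher level was not particular to VSMCs. It was higher in all 10 types, with a median log2 ratio of 1.15 and a range of 0.22 to 2.09. *Ndufa4* was at 495 and 667 CPM in VSMCs and at 154 and 323 CPM in macrophages. *Cox4i1*, the common isoform of subunit 4, was at 502 and 551 CPM in VSMCs and at 266 and 519 CPM in macrophages.

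Among members with at least 200 UMIs, the highest ratios in VSMCs were those of *Ndufa11*, *Cox4i2*, *Cox5b-ps*, *Ndufb7* and *Cox5a*, of which *Cox4i2* and *Cox5b-ps* rest on 39 and 45 AngII+HS UMIs. In fibroblasts the highest were *Ndufa3*, *Ndufa12*, *Ndufa6*, *Cox5b* and *Cox6c*, from 0.76 down to 0.67. In macrophages they were *Atp5md*, *Cox5a*, *Ndufb2*, *Ndufc1* and *Cox5b*, from 1.85 down to 1.64. *Atp5md*, a small membrane subunit of ATP synthase, was at 62.2 and 224 CPM there. In VECs they were *Cox5a*, *Ndufs8*, *Ndufv2*, *Ndufa8* and *Ndufa12*, from 1.01 down to 0.97. *Ndufs8* and *Ndufv2* encode iron-sulfur subunits of the arm of complex I that takes up electrons.

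*Cox7a2l* (chr17:83765970-83824759, GRCm39), known from other work for a role in joining complexes III and IV into supercomplexes, was the exception. Neither its protein nor supercomplexes were measured here. *Cox7a2l* RNA was lower in the AngII+HS library in 9 of the 10 types, and was the only one of the 67 members that was lower in most of them. It was at 207 and 145 CPM in VSMCs (log2 ratio -0.51, 95% interval -0.61 to -0.42), at 316 and 215 CPM in VECs (-0.56, -0.67 to -0.45), at 174 and 143 CPM in macrophages (-0.28, -0.43 to -0.12) and at 162 and 56.5 CPM in neutrophils (-1.52, -1.97 to -1.03). In fibroblasts it was at 175 and 172 CPM, with an interval that holds 0 (-0.11 to 0.06), and in B cells at 197 and 204 CPM. It had the lowest ratio of the ranked members in VSMCs, macrophages and VECs. Also at the lower end were *Cox6a1*, *Atp5c1*, *Ndufs6* and *Ndufb10* in VSMCs (-0.19 to -0.03), and *Uqcrc1*, *Uqcrc2*, *Ndufs3* and *Ndufb8* in fibroblasts (-0.04 to 0.11). In macrophages they included *Ndufv1*, *Ndufs3* and *Uqcrh* (0.30 to 0.48), and in VECs *Ndufb10*, *Ndufa6*, *Ndufb11* and *Uqcrc1* (0.01 to 0.10). *Uqcrc1* and *Uqcrc2* are the core proteins of complex III. Past the fold downward were also *Cox4i2* in VECs (26 and 18 UMIs) and, in macrophages, *Cox4i2* (4 and 24 UMIs), *Cox6b2* (12 and 72) and *Ndufa4l2* (5 and 32), the last with the 0.5 UMIs added to each sum for these counts. The 3 intervals in macrophages hold 0. 

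Paralogs of subunits were used unevenly between cell types. *Ndufa4l2* (chr10:127350818-127353038, GRCm39) is known as a gene induced at low oxygen and as a marker of pericytes. Among the named types it was largely a fibroblast transcript (86.8 and 95.2 CPM). Its AngII+HS level was higher in the unnamed cluster described next (242 CPM). *Ndufa4l2* made up 23.7% (95% exact interval 22.3 to 25.2) of the *Ndufa4l2* and *Ndufa4* UMIs in Control fibroblasts and 19.9% (19.2 to 20.6) in AngII+HS fibroblasts. In VSMCs the shares were 0.0228% and 0.263%, and in VECs 1.11% and 1.34%. A UMI of it was in 26.6% and 31.7% of the fibroblasts, at median depths of 4211 and 5416.5 UMIs (8.67% and 7.96% after thinning to 1000 UMIs), and in 0.118% and 1.29% of the VSMCs, at 9937.5 and 8762 UMIs. Within fibroblasts the cluster led by *Dio2* and *Fst* had the highest shares (37.0% and 31.6%) and the *Clec3b*-expressing cluster the lowest (8.92% and 4.76%).

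An unnamed cluster led by *Pln*, *Notch3* and *Higd1b* (171 and 221 cells), which carries markers of both VSMCs and pericytes, showed the largest difference in this pair. *Ndufa4l2* was at 49.6 and 242 CPM there, and *Ndufa4* at 503 and 298 CPM. The share of *Ndufa4l2* was 8.98% (7.08 to 11.2) and 44.8% (40.8 to 48.9). A UMI of *Ndufa4l2* was in 19.9% (14.2 to 26.7) and 54.3% (47.5 to 61.0) of the cells, at median depths of 7953 and 4680 UMIs, and in 5.85% and 20.8% after thinning each cell to 1000 UMIs. *Cox4i2* (chr2:152595625-152606959, GRCm39), the isoform of subunit 4 known from lung and from low oxygen, was also highest in this cluster, at 31.4 and 75.4 CPM or 6.11% and 12.6% of the *Cox4i1* and *Cox4i2* UMIs. All 6 pericyte markers were higher in the AngII+HS cells of this cluster (2476 and 5381 CPM in sum) and all 6 VSMC markers lower (30824 and 19598 CPM). All 6 fibroblast markers were higher too (1076 and 2264 CPM), as were the 6 neutrophil markers (4.19 and 417 CPM). The part of these in the paralog shares was not tested. A different mix of cells in the cluster and a different use of the paralogs by the same cells cannot be told apart.

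Plasma cells were the other place where *Cox4i2* stood out. It was at 33.8 CPM and 7.99% (6.17 to 10.2) of the pair, with a UMI in 23.5% of these cells at a median depth of 10323.5 UMIs, against 0.387% of the AngII+HS neutrophils at 1268 UMIs. After thinning to 1000 UMIs these were 2.44% (0.668 to 6.13) and 0.342% (0.182 to 0.584), and the interval of the plasma cells overlapped that of AngII+HS VSMCs (0.865%, 0.318 to 1.87). In named types other than these the share of *Cox4i2* was at most 2.29%. *Cox6b2*, known from testis, was highest in fibroblasts, with 15.6 and 17.1 CPM, or 10.0% and 7.77% of the *Cox6b1* and *Cox6b2* UMIs. The muscle isoforms were scarce. *Cox7a1* had 170 UMIs in all cells, *Cox6a2* 71 (of which 22 were in AngII+HS DCs) and *Cox8b* 31. *Cox7b2* had 2. In VSMCs *Cox7a1* made up 0.290% and 0.218% of its pair with *Cox7a2*.

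**Figure D5:**
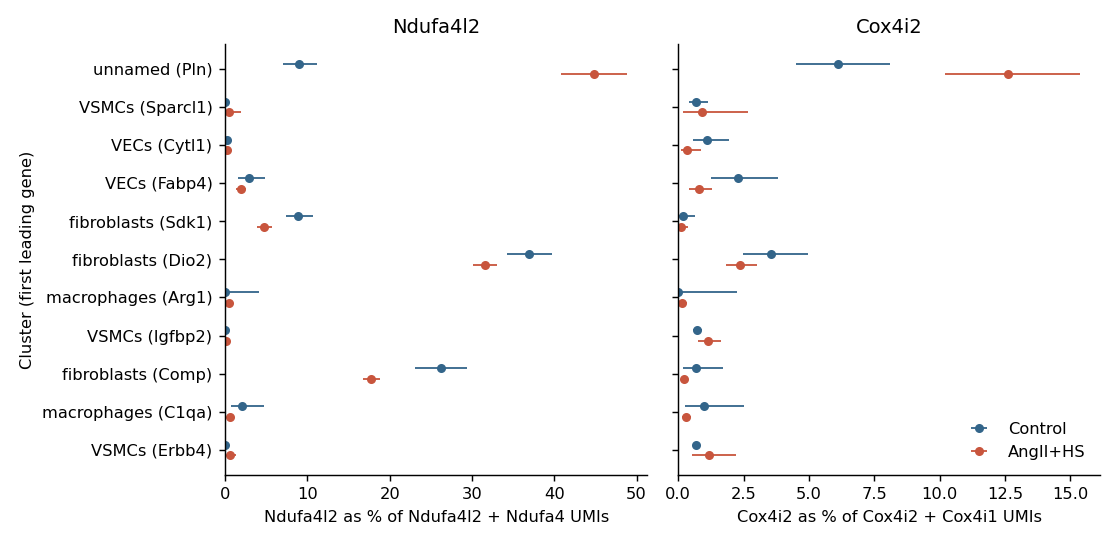
Share of *Ndufa4l2* (left) and of *Cox4i2* (right) in the UMIs of its pair, in percent, per cluster of 4 cell types and in the unnamed *Pln*-led cluster, with points for the libraries and bars for 95% exact binomial intervals. In the *Pln*-led cluster *Ndufa4l2* stands at 8.98% in the Control and 44.8% in the AngII+HS library, and in VSMC clusters near 0.

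Genes around the chain were divided. The mitochondrial ribosomal proteins, 78 nuclear genes needed to translate the mitochondrial set, were higher in the AngII+HS library in 10 of 10 types in sum (log2 ratios 0.25 to 0.78). In macrophages they were at 1638 and 2803 CPM. The electron carriers outside the naming rule (*Cyc1*, *Cycs*, *Ndufab1*) were higher in 10 of 10. *Cycs*, cytochrome *c*, was at 80.9 and 204 CPM in macrophages and at 87.2 and 179 CPM in VECs. Complex II was higher in 5 types and lower in 5, and in VSMCs, fibroblasts and VECs the interval of its ratio held 0. In macrophages its ratio was 0.43 (0.28 to 0.59). In VECs *Sdha* was at 84.2 and 63.3 CPM and *Sdhb* at 35.5 and 49.3 CPM, in opposite directions with intervals that do not hold 0.

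Factors of mitochondrial transcription and RNA were higher in sum in 5 types and lower in 5, with log2 ratios from -0.33 to 0.67. *Polg2*, the accessory subunit of the mitochondrial DNA polymerase, was at 38.7 and 15.5 CPM in VSMCs (-1.31, 95% interval -1.62 to -1.02) and at 20.6 and 7.39 CPM in macrophages (-1.48, -1.97 to -0.96). In fibroblasts (-0.19, -0.45 to 0.07) and VECs (-0.29, -0.59 to 0.01) its interval held 0. *Tfam*, which packages and transcribes mitochondrial DNA, was at 14.4 and 12.0 CPM in VSMCs and at 16.9 and 18.8 CPM in VECs, and its interval held 0 in these 2 types and in fibroblasts and macrophages. *Slirp*, a protein that with *Lrpprc* stabilises mitochondrial mRNA, was at 17.4 and 39.3 CPM in macrophages (log2 ratio 1.18, 95% interval 0.71 to 1.69). *Ppargc1a*, a coactivator of respiratory genes, was scarce. It was at 7.94 and 3.85 CPM in VSMCs (-1.05, -1.70 to -0.45) and had 0 and 4 UMIs in macrophages. The 7 regulators were lower in sum in 7 of 10 types. The carrier *Ucp2* was at 1.30 and 11.4 CPM in VSMCs and at 551 and 612 CPM in macrophages, the cells in which it is abundant.

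The cytosolic ribosomal mRNAs, also short and abundant, did not follow the nuclear set in all types. They were higher in the AngII+HS library in 7 of 10 and lower in 3, with 72539 and 65556 CPM in VSMCs, 86695 and 101985 CPM in fibroblasts, 74273 and 88968 CPM in macrophages and 97990 and 119416 CPM in VECs. Their log2 ratio in macrophages was 0.26, where that of the nuclear set was 1.03.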

How the data were processed

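The authors ran Cell Ranger on 3' libraries (10x Genomics) and deposited, per library, a matrix of raw UMI counts per gene and cell. The file header gives cellranger-8.0.1, and the labels the build mm10, while the study's methods name GRCm39. Depth was 86618995 UMIs in 11448 Control and 117146856 UMIs in 24804 AngII+HS barcodes. A cell had to have 500 or more UMIs, 200 or more genes and less than 20% of its UMIs from mitochondrial genes. Doublets were removed with Scrublet (scanpy 1.11.5) at 0.8% per 1000 cells, from the highest score down. The step took out 1019 of 11288 Control and 4826 of 24560 AngII+HS cells, a larger part of the AngII+HS library. Cells were integrated and clustered with Seurat 5.3.0 (2000 variable genes without members, 30 components, resolution 0.8), and clusters named by marker lists. For each type, UMIs of a library were added up over its cells and scaled to CPM, with exact Poisson, binomial and conditional binomial 95% intervals that cover counting error only. Medians and counts over members used sums with 0.5 UMIs added and at least 20 UMIs over both libraries.

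Named were all mitochondrial members, the paralog pairs, *Cox7a2l* and the 5 highest and 5 lowest nuclear members per type with at least 200 UMIs. Of these, 1 is not reported here. Other names were given after their values were seen. The members and lists were chosen with earlier results of these data known. Coordinates come from GENCODE vM39 (GRCm39), which listed all 97 members by gene ID, and promoters from RefSeq (GRCm38.p6). On simulated counts of 15577 genes in VSMCs with 200 genes changed by a fold of 2, 97.5% had the right direction. The counting interval held the true ratio in 93%. Without replicate libraries the simulation has no measured variation between libraries or mice, so it bears on counting error only. Alternatives covered cell filters, doublets, clustering, scaling (TMM, edgeR 4.0.16), cell weights and depth. The window of 2000 to 10000 UMIs was added after seeing the data. Python 3.11.15, numpy 2.4.6, scipy 1.17.1, pandas 2.3.3 and R 4.3.3 were used.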

Additional observations from a re-analysis of the deposited data

How the results depend on the processing

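All 8 ratios of the sets (VSMCs, fibroblasts, macrophages, VECs) kept their direction under all 12 alternatives, but their size moved. The mitochondrial log2 ratio ran from -0.82 to -0.15 in VSMCs, -0.99 to -0.68 in fibroblasts, -1.30 to -0.86 in macrophages and -1.35 to -1.10 in VECs, and the nuclear one from 0.06 to 0.23, 0.14 to 0.59, 0.53 to 1.34 and 0.33 to 0.51. Values beyond the counting interval follow, and the causes were not tested.

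With no doublets removed, the mitochondrial ratios were -0.65 in VSMCs and -0.99 in fibroblasts, the nuclear ones 0.20 in VSMCs, 0.31 in fibroblasts and 0.45 in VECs, and the mitochondrial share standardised to the Control mix 2.39%. With the stricter cell filter, the mitochondrial ratios were -0.82, -0.91, -0.996 and -1.10 in VSMCs, fibroblasts, macrophages and VECs. With no mitochondrial limit they were -0.18, -0.98 and -1.25 in VSMCs, fibroblasts and VECs, the nuclear ones 0.10, 0.31 and 0.997 in VSMCs, fibroblasts and macrophages, and the standardised share 2.75%. Without integration the mitochondrial ratios were -0.48, -0.93 and -1.12 in VSMCs, fibroblasts and macrophages and the nuclear ones 0.33 and 0.53 in fibroblasts and macrophages. At resolution 1.2 the mitochondrial ratio of VSMCs was -0.48. At resolution 0.4 the mitochondrial ratios were -0.95 and -1.12 and the nuclear ones 0.30 and 1.09 in fibroblasts and macrophages. With members allowed among the variable genes, the mitochondrial ratios were -0.48 and -1.12 in VSMCs and macrophages, and the nuclear one 1.09 in macrophages.

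With totals without mitochondrial genes, the mitochondrial ratios were -0.49, -0.92, -1.20 and -1.22, and the nuclear ones 0.21, 0.35 and 0.47 in VSMCs, fibroblasts and VECs. TMM scaling moved all genes by a log2 of 0.23 in fibroblasts and 0.31 in macrophages. It gave mitochondrial ratios of -0.49, -0.68 and -0.86 and nuclear ones of 0.21, 0.59 and 1.34 in VSMCs, fibroblasts and macrophages, with 48 members higher in fibroblasts and 0 lower in macrophages. With equal weight per cell the mitochondrial ratios were -0.15, -0.87, -1.30 and -1.28 and the nuclear ones 0.073, 0.14, 0.95 and 0.33. After thinning to 1000 UMIs they were -0.15, -0.93, -1.19 and -1.35, and 0.064, 0.22 and 0.40 in VSMCs, fibroblasts and VECs. In cells of 2000 to 10000 UMIs they were -0.18, -0.93, -1.19 and -1.25, and 0.093, 0.33, 1.13 and 0.36.

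With no minimum of UMIs, 14 nuclear members were higher in VSMCs and 2, 6 and 7 lower in fibroblasts, macrophages and VECs. Past a log2 ratio of 1, 1 was higher and 0 lower in VSMCs, 0 higher in fibroblasts, 38 higher and 0 lower in macrophages and 2 higher and 1 lower in VECs. Shares of all genes were not computed at these settings or with TMM scaling, so these counts have no background beside them. No paired analysis was possible because each condition is 1 library, and for the same reason no library could be left out. Counts limit members under 20 UMIs, and the Control sums of DCs, T cells, B cells and neutrophils rest on 33 to 133 cells.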
